A study of Homo sapiens with 3 samples.

Results

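Of the 4889 peaks in a map of chromatin recovered with the long noncoding RNA KCNQ1OT1, 500 (10.2%) lay deep inside long protein-coding genes. A peak was taken when it lay on chromosomes 1 to 22, its midpoint fell inside a protein-coding gene of 200 kb or longer, and it was more than 5 kb from both ends of every protein-coding gene. Where several genes held the midpoint, the longest was taken as the host. The 17 peaks overlapping KCNQ1OT1 itself were left out. The rule used position alone, so the strength and the width of a peak were free to differ. For comparison, 671 peaks lay equally deep inside shorter protein-coding genes, 396 lay within 5 kb of a protein-coding gene end, and 2870 made up the remaining autosomal peaks.

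KCNQ1OT1 is an antisense transcript of the imprinted KCNQ1 domain on chromosome 11, made from the paternal copy, and is known for silencing neighbouring genes in cis. ChIRP (chromatin isolation by RNA purification) pulls down a chosen RNA with biotinylated probes that pair with it and sequences the DNA that comes along. Very long protein-coding genes consist almost wholly of intron. Many of them encode proteins of the synapse, of cell adhesion and of the extracellular matrix, and several span common fragile sites.

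All 3 libraries came from HEK293T cells, an established line derived from human embryonic kidney, crosslinked with formaldehyde. The first was a pulldown with the odd probes, the second a pulldown with the even probes, and the third an input without probes, with 1 library in each group. The deposited values formed a single merged peak list, so no peak had a value for each library. All 4889 peak names carried the label Even, and whether the values come from the even pulldown alone was not tested. As there was 1 list, no spread between replicates existed. Differences between sets of peaks are therefore given with 95% intervals that treat each peak as 1 independent count, and without a test. A list of DNA peaks holds no expression values, so the labelled cell type was not checked against markers.

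Of the 500 peaks, 484 lay on chromosomes whose annotated starts were used here. Only 1 of these 484 covered part of a listed promoter window, which runs from 250 bases before to 50 after a start. The overlap was found in 7 of 645 such peaks of shorter genes and in 20 of 386 near gene ends. In the remaining autosomal peaks it was found in 8 of 2730 (0.293%, against 0.207% in long genes). The rule leaves out peaks within 5 kb of a protein-coding gene end, so a low count in long genes is largely set by the rule. The single window belonged to LOC101929998, a lncRNA gene on the minus strand inside DPP6, which encodes an auxiliary subunit of Kv4 potassium channels. Its sequence is shown because it is the one annotated start that a peak in a long gene touched. The window occupies chr7:154060521-154060820 (GRCh38.p14, RefSeq, minus strand), and the capitals mark a 9-base stretch, GGGGGGTGC, that occurs in it 3 times.

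LOC101929998 start window: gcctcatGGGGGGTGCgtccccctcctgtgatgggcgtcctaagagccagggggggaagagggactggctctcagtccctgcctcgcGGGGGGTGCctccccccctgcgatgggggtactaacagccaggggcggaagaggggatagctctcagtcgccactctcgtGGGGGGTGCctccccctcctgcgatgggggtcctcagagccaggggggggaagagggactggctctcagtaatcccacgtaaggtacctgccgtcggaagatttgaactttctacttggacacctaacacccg

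The 3 copies were spaced 80 bases apart, and a longer stretch of 27 bases occurred 2 times, 161 bases apart. Of 35116 listed windows, 2057 (5.86%) held some 9-base stretch 3 times or more without overlap. The G and C content was 65%, against a median of 58.7% over the listed windows. The peak over it, chr7:154059714-154061703, was 1990 bp wide with a fold enrichment of 5.31, and its summit fell inside the window. It was among the wide and weak peaks described next.

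The deposited fold enrichment is the ratio of the pulldown signal to the expected background at the summit of a peak. Peaks deep in long genes were strong. Their median fold was 18.0 (95% interval 15.6 to 20.9), with the middle of the distribution between 8.17 and 34.7 and the whole range from 2.45 to 120.6. In shorter genes the median was 9.24 (8.39 to 10.2), near gene ends it was 11.3 (9.58 to 13.7), and in the remaining autosomal peaks it was 7.45 (7.22 to 7.67). The interval for long genes did not overlap any of these.

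Strong peaks, taken as those with a fold of at least 20, made up 237 of the 500 in long genes (47.4%, Wilson 95% interval 43.1 to 51.8), against 26.0% of all 4437 autosomal peaks outside KCNQ1OT1. The share was 32.0% (28.6 to 35.7) in shorter genes and 35.9% (31.3 to 40.7) near gene ends. The folds in long genes showed 2 humps at the one bin width used, and the shape was not tested. On a log2 scale in steps of 0.5, one hump held 66 peaks between 3 and 3.5, the other held 74 between 5 and 5.5, and the step from 3.5 to 4 between them held 46. Shorter genes also showed 2 humps at this bin width, but the lower one dominated, with 146 peaks at 2.5 to 3 and 65 at 4.5 to 5.

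**Figure D1:**
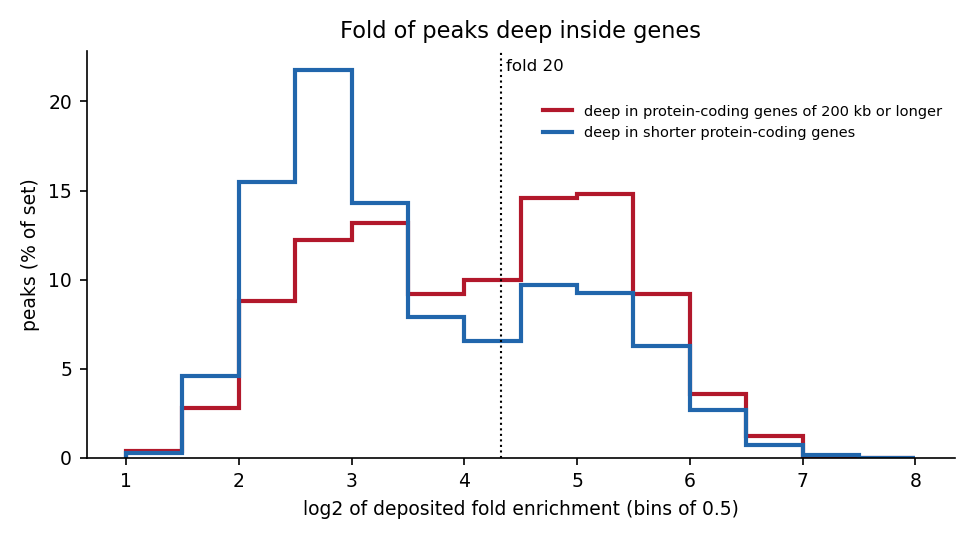
Distribution of deposited fold enrichment (log2 scale, steps of 0.5) for the 500 peaks in long genes and the 671 in shorter genes, as the percentage of each set, with a dotted line at a fold of 20; 2 peaks of shorter genes lie off the axis. The step from log2 5 to 5.5 holds 14.8% of the peaks in long genes and 9.24% of those in shorter genes, and the step from 2.5 to 3 holds 12.2% and 21.8%.

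The fold and the −log10 p of a peak together fix how many sequenced fragments overlapped at its summit (the pileup) and how many were expected there (the background), if they were computed with the formulas that MACS2 uses. Solved in this way, the pileup came out as a whole number within 0.05 for all 4437 autosomal peaks. Pileups in long genes had a median of 70.5 fragments (62 to 80) and ran from 13 to 440. In shorter genes the median was 40 (36 to 46).

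Between long and shorter genes, the backgrounds were closer together than the pileups. The median expected background was 2.20 fragments (2.03 to 2.36) in long genes and 2.37 (2.36 to 2.54) in shorter genes, and it was 4.40 (4.13 to 4.71) in the remaining autosomal peaks, whose median pileup was 50 (48 to 52). A background of 5 or more was found at 72 peaks in long genes (14.4%), against 34.9% of all autosomal peaks and 15.1% of those in shorter genes. The lowest background in the list, 1.63, applied to 138 peaks in long genes (27.6%, 23.9 to 31.7), against 15.6% of all autosomal peaks and 20.4% (17.5 to 23.6) of those in shorter genes. The higher folds in long genes thus went with larger pileups, on a background that was slightly lower than in shorter genes.

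The strong and the weak peaks of long genes differed in both quantities. Fold is computed from them, so a division by fold itself favours larger pileups and lower backgrounds among strong peaks. The 237 peaks with a fold of 20 or more had a median pileup of 114 fragments (105 to 126), a median background of 1.77 and 6 backgrounds of 5 or more. The 263 weaker peaks had a median pileup of 36 (33 to 39), a median background of 2.95 and 66 backgrounds of 5 or more. Strong peaks of shorter genes had nearly the values of those in long genes, with a median pileup of 117 and a median background of 1.86.

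Peaks in long genes were narrow, with a median width of 574 bp (559 to 589) and a range of 288 to 2850 bp. The median was 634 bp (611 to 677) in shorter genes and 1082.5 bp (1030 to 1127) in the remaining peaks. Peaks wider than 1000 bp made up 95 of 500 in long genes (19%, 15.8 to 22.7), against 43.9% of all autosomal peaks and 31.6% (28.2 to 35.2) of those in shorter genes. Together the 500 peaks covered 360 kb.

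Width and fold divided the peaks into a tight band and a loose cloud. In the band, width grew with fold. Peaks with a fold of 10 to 20 had a median width of 462 bp, those of 20 to 40 had 539 bp, and the 88 peaks of 40 or more had 599.5 bp, with 0 of the 88 wider than 1000 bp. In the cloud, folds were low and widths scattered. The 44 peaks with a fold under 5 had a median width of 885.5 bp, and the 124 peaks of 5 to 10 had a median of 843 bp. Over all 500 peaks the Spearman correlation of fold and width was −0.17. Shorter genes had a like shape, with median widths of 873, 937, 522.5, 555.5 and 604 bp from the lowest to the highest of these fold classes.

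A limit of 700 bp, chosen after the values were seen, separates most of the band from most of the cloud. The 367 peaks of 700 bp or less had a median fold of 25.9 (24.1 to 29.0) and a Spearman correlation of fold and width of 0.59 across peaks of this one list. The 133 wider peaks had a median fold of 7.09 (6.5 to 8.04) and a correlation of 0.17. Their median background was also higher, at 3.89 fragments against 1.86 in the narrow peaks. Only 9 of the 133 wider peaks reached a fold of 20. In shorter genes the correlation was 0.45 at 700 bp or less and 0.099 above it, with median folds of 20.5 and 7.22. The shape is therefore not particular to long genes.

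**Figure D2:**
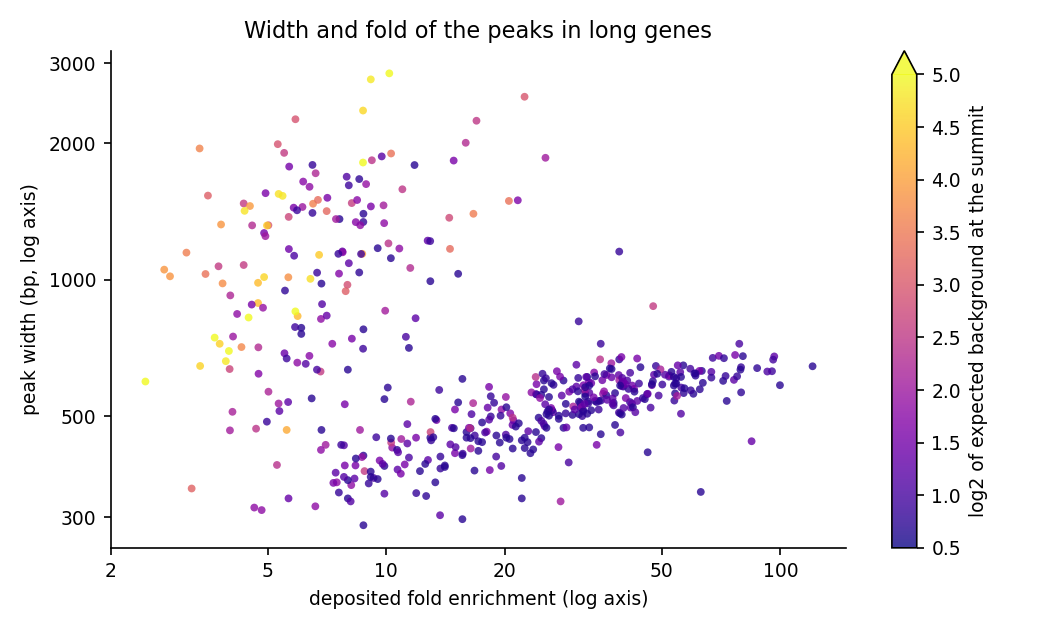
Width of each of the 500 peaks in long genes against its deposited fold (both axes logarithmic), with colour giving log2 of the expected background at the summit. Narrow peaks form a band that rises with fold to a median of 599.5 bp at a fold of 40 or more, and 90 of the 95 peaks above 1000 bp lie below a fold of 20, where the high backgrounds are also found.

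Per length of gene, long genes held fewer peaks than shorter ones, and weak peaks accounted for the difference. The 500 peaks lay in 543 Mb of sequence that the rule admits, which is 0.921 per Mb (exact Poisson 95% interval 0.842 to 1.00). The 671 peaks of shorter genes lay in 496 Mb, which is 1.35 per Mb (1.25 to 1.46). Strong peaks were equally dense within these intervals. There were 0.436 per Mb (0.383 to 0.496) with a fold of 20 or more in long genes and 0.433 (0.377 to 0.495) in shorter genes. Weaker peaks numbered 0.484 per Mb (0.427 to 0.546) in long genes and 0.918 (0.836 to 1.01) in shorter genes.

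The higher share of strong peaks in long genes therefore came with fewer weak peaks, not with more strong ones. From genes under 50 kb to genes of 1000 kb or longer, the density of weak peaks went from 1.25 to 0.885 (50 to 100 kb), 0.786 (100 to 200 kb), 0.552 (200 to 300 kb), 0.479 (300 to 500 kb), 0.434 (500 to 1000 kb) and 0.479 per Mb. Strong peaks in the same classes had 0.407, 0.433, 0.445, 0.530, 0.448, 0.390 and 0.356 per Mb, with overlapping intervals. Within long genes alone, the median fold varied little among the length classes, from 13.7 (10.7 to 24.7) in genes of 1000 kb or longer to 18.4 (13.2 to 22.4) at 500 to 1000 kb.

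**Figure D3:**
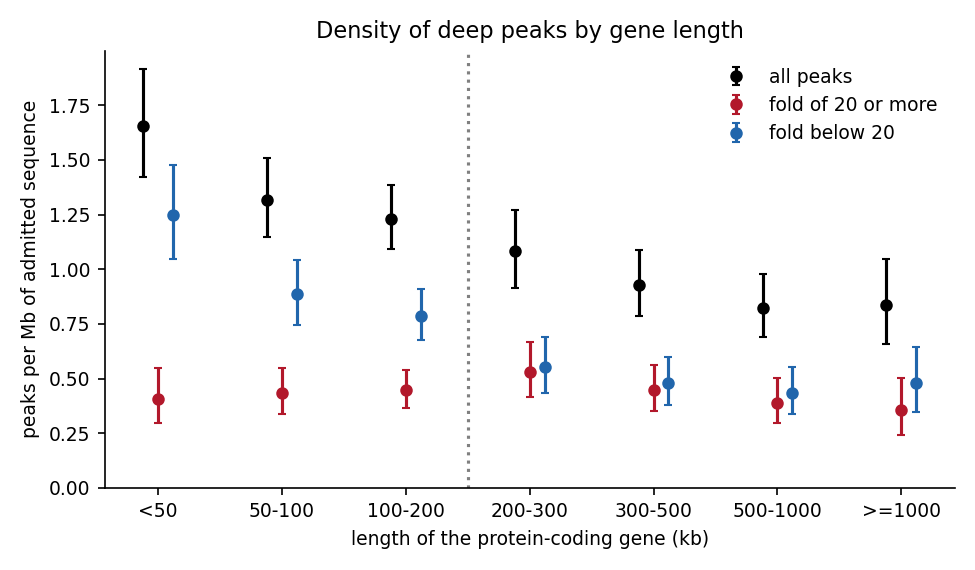
Peaks per Mb of admitted gene sequence in 7 classes of host gene length, for all peaks, for those with a fold of 20 or more and for weaker ones, with exact Poisson 95% intervals; the dotted line marks the 200 kb limit. Weak peaks go from 1.25 per Mb in genes under 50 kb to 0.479 in genes of 1000 kb or longer, and strong peaks stay between 0.356 and 0.530.

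Dividing the peaks by pileup or by width gave a like picture. Neither division is independent of fold, as pileup enters its formula and the width limit was chosen with the values in view. Peaks with a pileup of 50 or more had 0.576 per Mb (0.514 to 0.644) in long and 0.586 (0.521 to 0.657) in shorter genes, while smaller pileups had 0.344 (0.297 to 0.397) and 0.765 (0.690 to 0.846). Peaks of 700 bp or less had 0.676 per Mb (0.608 to 0.748) against 0.749 (0.675 to 0.829), while wider ones had 0.245 (0.205 to 0.290) against 0.602 (0.536 to 0.674). Among weak peaks, the deficit was present both where the background was under 5, with 0.363 (0.314 to 0.417) against 0.719 (0.646 to 0.798), and where it was 5 or more, with 0.122 (0.0940 to 0.155) against 0.199 (0.162 to 0.243). Weak peaks were less dense in long genes on 18 of 22 chromosomes, and strong peaks on 10 of 22.

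Peaks in long genes mostly stood alone. Another peak lay within 100 kb of 75 of the 500 (15%, 12.1 to 18.4), against 49.6% of all autosomal peaks and 35% (31.5 to 38.7) of those in shorter genes. Peaks of a denser set more often have a neighbour, so leaving such peaks out can narrow a difference in density by itself. Whether neighbours bear on the difference in weak peaks was not tested. Counting only weak peaks with no other peak within 100 kb, the density was 0.398 per Mb (0.346 to 0.454) in long genes and 0.564 (0.5 to 0.634) in shorter genes. For strong peaks without a neighbour it was 0.385 (0.334 to 0.441) and 0.314 (0.267 to 0.368).

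The 500 peaks were spread over 397 of the 1340 autosomal protein-coding genes of 200 kb or longer (29.6%), and 943 such genes had none. A single peak was found in 318 genes, 2 peaks in 58, 3 in 19, 4 in NKAIN2 and 5 in AGBL1. Longer genes, which have more admitted sequence, more often held one. A peak was present in 133 of 601 genes of 200 to 300 kb, in 126 of 436 of 300 to 500 kb, in 99 of 237 of 500 to 1000 kb and in 39 of 66 of 1000 kb or longer. Per Mb of admitted sequence, these classes held 1.08, 0.927, 0.824 and 0.835 peaks, so density did not rise with length. The longest genes with a peak were RBFOX1, a neuronal splicing factor, CNTNAP2, a neurexin-family adhesion protein, and DLG2, a postsynaptic scaffold, each with 2. The longest without were PTPRD, a receptor tyrosine phosphatase, PDE4D, a cAMP phosphodiesterase, and FHIT, a tumour suppressor at a fragile site. For PTPRD, 0 peaks in 2.29 Mb of admitted sequence allows up to 1.31 per Mb (3 counts over that length) or 1.61 (exact Poisson upper limit), both of which are above the average of long genes, so its lack of a peak does not set it apart.

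AGBL1, which encodes a tubulin deglutamylase, is 952 kb long on chromosome 15 and held the most peaks. Their folds along the chromosome were 20.6, 32.7, 18.3, 7.06 and 10.2. The first 3 were narrow, at 508, 564 and 381 bp, on backgrounds of 2.36 to 3.22. The other two were wide, at 1417 and 2850 bp, on backgrounds of 9.48 and 42.3. The last of them, chr15:86999880-87002729, was the widest of the 500 peaks and had the largest pileup, 440 fragments, and its moderate fold was that pileup over the high background.

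NKAIN2, which encodes a partner of the sodium pump, is 1022 kb long on chromosome 6. Its 4 peaks had folds of 40, 29.7, 13.0 and 10.1 with pileups of 127, 92, 35 and 26. All 4 were narrow, at 443 to 579 bp, and stood on backgrounds of 1.68 to 2.20. Here the background was nearly constant and the pileup alone set the order of the folds.

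Strong and weak peaks often shared a gene. Of the 79 genes with 2 or more peaks, 46 held both a peak of fold 20 or more and a weaker one, 11 held strong peaks only and 22 weak peaks only. The highest fold in a gene was a median of 3.08 times the lowest, and more than 2 times the lowest in 52 of the 79 genes. Of the 21 genes with 3 or more peaks, 16 were mixed. Strong peaks were 47.4% of all 500, so mixed genes would be common even if fold and gene were unrelated. Whether the mixing departs from that was not tested.

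SLC24A3 and LRMDA were the only genes with 3 or more peaks whose folds all reached 20. SLC24A3, a sodium, potassium and calcium exchanger on chromosome 20, had folds of 79.2, 25.7 and 39.7. LRMDA, a gene of melanocyte differentiation on chromosome 10, had 31.1, 30.8 and 24.0. The exact counting intervals of the LRMDA peaks, 24.9 to 38.3, 24.7 to 38 and 18.5 to 30.6, overlapped, whereas the highest peak of SLC24A3 (68.8 to 90.7) stood clear of the other two (20.2 to 32.2 and 33.1 to 47.2).

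Several mixed genes held folds whose counting intervals, which take the background as fixed, did not overlap. CDC42BPA, a kinase that acts downstream of CDC42, had folds of 10.9 (8.27 to 14.2), 76.7 (68.4 to 85.9) and 4.68 (3.18 to 6.65). PRKG1, the cGMP-dependent protein kinase, had 73.1 (63.1 to 84.1), 31.1 (24.9 to 38.3) and 5.33 (4.51 to 6.26), the last on a background of 26.7 fragments. BBX, an HMG-box protein, had 14.1, 27.1 and 71.5, with the stronger pair of peaks about 10.1 kb apart.

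ESR1, which encodes estrogen receptor alpha, had folds of 16.7 (12.2 to 22.4), 40.4 (34.1 to 47.6) and 46.1 (39.3 to 53.7), so that the first was lower and the other two were not separated by counting error. CDH18, a cadherin, had 53.8, 4.57 and 7.02, and CTNNA3, an alpha-catenin, had 43.3, 5.03 and 5.33, each with 1 strong peak and a pair of weak ones. NTM, which encodes the adhesion protein neurotrimin, had weak peaks only, at 7.99, 3.37 and 8.69. Its weakest peak had 84 overlapping fragments on a background of 24.2, more fragments than the 20 of the peak with a fold of 7.99.

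ADAMTS19, an extracellular protease gene of 278 kb, had the lowest fold of all 500 peaks, 2.45 (2.05 to 2.91), beside others of 8.18 and 16.2. That lowest peak had 130 fragments over a background of 52.5. The 3 next lowest were in TMEM232 (2.73), in the collagen gene COL25A1 (2.83) and in ZEB1 (3.11), a transcription factor of epithelial to mesenchymal transition. Their backgrounds of 11.8 to 14.7 fragments were several times the median.

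**Figure D4:**
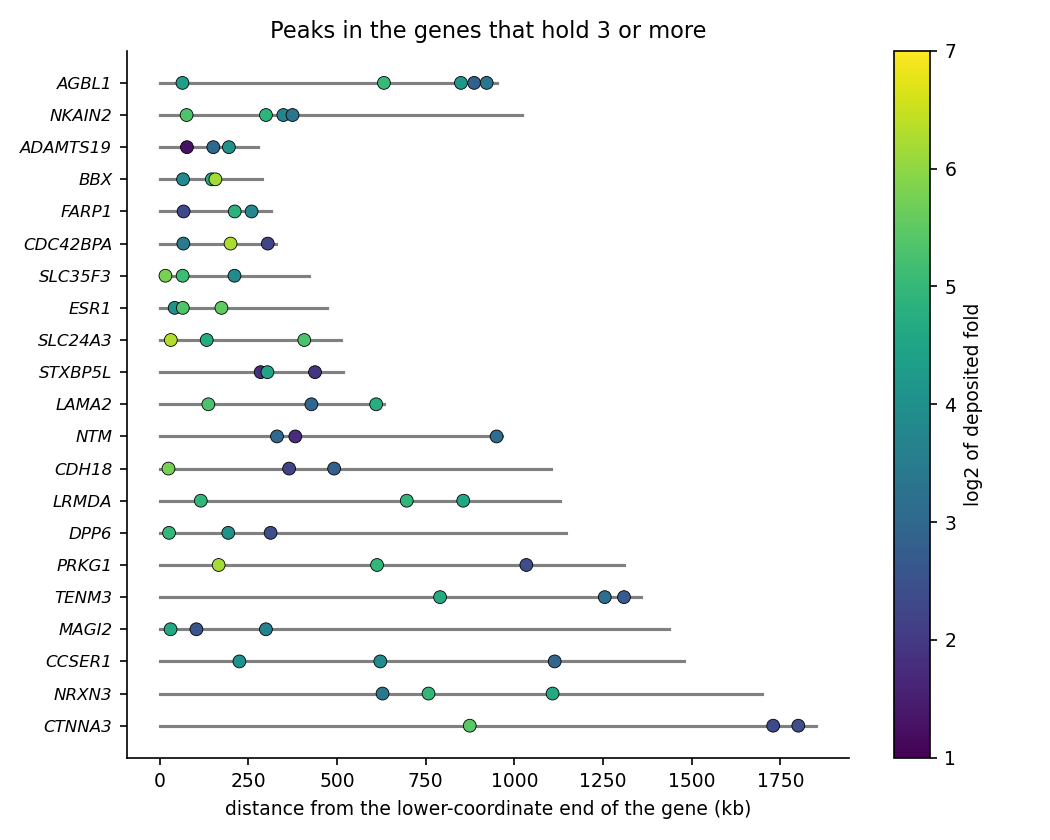
Position of each peak along the 21 long genes with 3 or more peaks, as distance in kb from the lower-coordinate end of the gene (grey line), with colour giving log2 of the deposited fold. Dark and light peaks share a gene in most rows: in 16 of the 21 genes the folds lie on both sides of 20. Peaks with a fold of 20 or more are 47.4% of all 500, so mixed rows would be common even if fold and gene were unrelated.

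Neighbouring peaks in the same gene were mostly far apart, with a median of 146 kb over 103 adjacent pairs and 4 pairs within 10 kb. The closest pair lay in EPHA6, an ephrin receptor, with 289 bp between the peaks and folds of 18.2 and 19.6. In CNTLN, a centrosomal protein gene, a pair 758 bp apart had folds of 4.01 and 4.07. The members of both pairs therefore had nearly equal folds.

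The strongest peak, with a fold of 120.6 (107.7 to 134.7), lay in NAALADL2 at chr3:174900812-174901456. It was 645 bp wide, with 316 fragments at its summit on the lowest background, 1.63. PDSS2, an enzyme that builds the side chain of coenzyme Q, followed with 99.7 (88.0 to 112.5) at chr6:107341982-107342567. PPP1R12B, a targeting subunit of myosin phosphatase, had 96.5 (86.3 to 107.5) at chr1:202465241-202465918. The interval of PDSS2 overlapped that of NAALADL2, and that of PPP1R12B ended just below it.

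The next 3 had folds that counting error did not separate. PRKCA, protein kinase C alpha, had 95.8 at chr17:66692455-66693121. SMG6, the endonuclease of nonsense-mediated decay, had 95.2 at chr17:2131280-2131908. CMSS1 had 92.6 at chr3:100105103-100105730, a position that also lies in the overlapping protein-coding gene FILIP1L. All 6 of these peaks were between 586 and 678 bp wide, within the band of narrow peaks.

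Further strong peaks were those of CADM2, a synaptic adhesion protein, with 87.3, ROR1, a receptor of the Wnt pathway, with 84.5, ANKS1B with 80.3, AKAP6, an anchor of protein kinase A, with 79.4, and SLC24A3 with 79.2. The genes named do not share a single function. The ROR1 peak, 441 bp wide with 298 fragments, was narrower than the others, and ROR1 held a second peak with a fold of 47.2. By deposited score, which ranks by p, the 6 leading peaks were NAALADL2, PPP1R12B, PRKCA, ROR1, CMSS1 and CDC42BPA.

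Gene lists that fit long genes were then counted, with 363 of the 1340 genes in at least 1 of 12 lists. A peak was found in 114 of these 363 genes and in 283 of the 977 genes in no list. Over all long genes the share with a peak was 29.6% (397 of 1340). The share in a list also goes with the length of its genes. Median gene length ran from 301 kb in chromatin regulators to 1504 kb in genes of common fragile sites. No list stood outside the density of all long genes, 0.921 per Mb, by its interval. The lists are small and their genes were not chosen independently of earlier results, so their values are descriptions.

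Synaptic adhesion and axon guidance genes had a peak in 21 of 52, with 0.873 peaks per Mb (0.597 to 1.23) and a median fold of 15.9 (8.63 to 25.5), against 18.0 in all long genes. Behind CADM2 came CNTNAP2, with 39.9 and 7.56, SEMA3A, a repulsive guidance cue, with 35 and 8.63, and the adhesion protein NRCAM with 32.2. Cadherins and catenins had a peak in 6 of 21, with 0.845 per Mb and a median fold of 7.89 (5.03 to 38.1). Only CDH18, CTNNA3 and the protocadherin PCDH15 (38.1) had a strong one.

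Ion channel genes had a peak in 13 of 44, with 0.747 per Mb and a median of 18.4. The calcium channel subunits led, with CACNB4 at 56.7, CACNA1E at 39.0 and CACNA1D at 31.9, beside the potassium channel KCNH8 at 32.5. Neurotransmitter receptors had a peak in 7 of 23, with 0.718 per Mb and a median of 9.21. The metabotropic glutamate receptor GRM5 had 53.7, while the kainate receptor subunits GRIK3 and GRIK4 reached 14.7 and 9.29.

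Genes of common fragile sites, which replicate late and break under replication stress, had a peak in 8 of 15 (53.3%, 30.1 to 75.2). Because they are very long, this amounted to 0.651 peaks per Mb (0.356 to 1.09), below the overall density but with an interval that includes it. MACROD2 held peaks of 54.4 and 4.51, LRP1B, a lipoprotein receptor, of 28.2 and 7.81, and WWOX 1 of 23.4. CTNNA3 and CNTNAP2 are in this list as well as in the lists above.

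Receptor tyrosine phosphatases and kinases had a peak in 8 of 21, with 0.836 per Mb and the highest median fold of the lists, 26.6 (17.1 to 47.2, 11 peaks). ROR1 had peaks of 84.5 and 47.2, ALK, a kinase activated by fusions in cancer, had 46.1 and 40.5, PTPRO had 37.7 and the ephrin receptor EPHB1 had 26.6. Cyclic nucleotide signalling genes had a peak in 9 of 20 and the highest density, 1.32 per Mb (0.701 to 2.25). AKAP6 and PRKG1 led it, followed by the phosphodiesterase PDE4B, with 29.0 and 8.75, and the adenylate cyclase ADCY2, with 19.4 and 14.9.

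Transcription factor genes had a peak in 20 of 65, with 0.814 per Mb and a median of 24.0 (14.9 to 40.4). The leading genes were ZNF385B with 62.3, ZBTB20 with 60.5, the homeodomain protein PBX3 with 59.2 and ESR1. Extracellular matrix genes had a peak in 11 of 37, with 1.02 per Mb and a median of 19.1. COL24A1, a fibrillar collagen, had 76.2, the protease ADAMTS17 45.9, the laminin subunit LAMA2 39.5, 7.75 and 26.2, and ADAMTS12 36.9 and 27.6.

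RNA-binding and splicing proteins had a peak in 4 of 15, with 0.622 per Mb. RBFOX1 had 6.09 and 44.8, and STAU2 (12.9), MBNL2 (5.82) and RBMS3 (4.73) had weak peaks only. Chromatin regulators had the fewest, a peak in 3 of 21 and 0.428 per Mb (0.0883 to 1.25), namely the histone deacetylase HDAC9 with 60.9, MLLT3 with 13.6 and L3MBTL4 with 11.9.

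**Figure D5:**
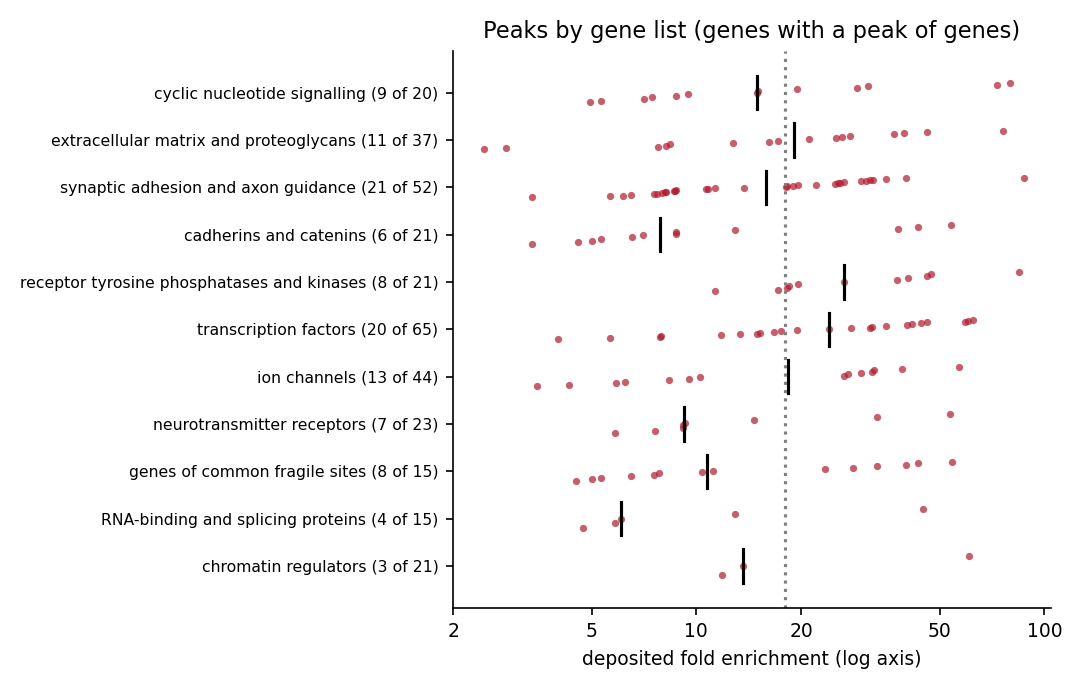
Deposited fold (log axis) of each peak in the long genes of 11 lists, ordered by peaks per Mb, with black bars for the median of each list, the number of genes with a peak beside each name, and a dotted line at the median of all 500 peaks, 18.0. Every list of more than 3 peaks spans folds from under 12 to above 25, and the medians run from 6.09 to 26.6.

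Along their genes the peaks had no preferred end. Of the 435 peaks whose host gene has a listed strand, 221 (50.8%, 46.1 to 55.5) lay nearer the start of the gene than its end and 214 nearer the end. Divided into 10 equal stretches, the genes held between 35 and 53 peaks in each. The distance to the nearest protein-coding gene end had a median of 92.1 kb (84.0 to 101) and ran from 5.33 to 988 kb. Fold was nearly unrelated to this distance (Spearman 0.02 across the 500 peaks) and to the length of the host gene (−0.03), and it followed the pileup (0.75) more closely than it opposed the background (−0.46), both of which enter its formula.

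Across the 200 kb limit the median fold went from 10.3 (9.24 to 13.3) in genes of 100 to 200 kb to 17.8 (13.4 to 25.4) in genes of 200 to 300 kb, and the share with a fold of 20 or more from 36.2% (30.8 to 41.9) to 49.0% (41.0 to 57.0). The individual peaks at the limits are a description. Just above 200 kb lay peaks in CCDC30, GRB10, an imprinted adaptor gene, and AHCYL2, with folds of 13.4, 48.7 and 6.85. Just below lay ADAMTS20, RHBDD1 and CPXM2, with 27.4, 7.63 and 10.3. Just beyond 5 kb from a gene end lay peaks in PDE4B, LRBA and SLCO1B3-SLCO1B7, with 8.75, 8.54 and 62.8, and just within it CCSER1, ZFYVE9 and ARSB, with 36.2, 6.81 and 14.2.

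Noncoding genes lay at few of the peaks. A lncRNA gene also held the midpoint of 34 of the 500 (6.8%, 4.91 to 9.35), against 6.26% (4.66 to 8.35) in shorter genes. These 34 peaks had a median fold of 26.0 (13.7 to 35), an interval that overlaps that of all 500. They included the peaks of 79.2 in SLC24A3, over SLC24A3-AS1, of 63.2 in CLASP1, over CLASP1-AS1, and of 50.9 in FTO. These examples were chosen after their values were seen. Reads from both strands of DNA are alike in this assay, so a peak cannot be assigned to a gene or to its antisense partner.

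None of the 500 midpoints lay in a miRNA, snoRNA, snRNA or tRNA gene of the table, and 0 of 500 allows a share of up to 0.762% (Wilson). The count was also 0 among the 671 peaks of shorter genes, so it does not set long genes apart. Within 2 kb, MIR3170 lay 603 bp from the weakest FARP1 peak and MIR5704 lay 1053 bp from a peak of 56.8 in CPNE4, which encodes a copine. An annotated start of any gene lay within 5 kb of 19 of 484 peaks (3.93%, 2.53 to 6.05), starts on chromosome 8 being not used here, with a median distance of 65.8 kb. In shorter genes the count was 42 of 645 (6.51%, 4.85 to 8.68). The nearest after DPP6 was a start of SLC25A48, at 0.665 kb from a peak with a fold of 11.4. The strong PPP1R12B peak was 2.87 kb from an internal start of that gene.

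Across chromosomes with 10 or more such peaks, the density in long genes ran from 0.519 per Mb (0.297 to 0.843) on chromosome 8 to 1.36 (1.01 to 1.80) on chromosome 6. Chromosome 6 carried 49 peaks, with NKAIN2, ESR1, LAMA2 and PDSS2 among their hosts. Of these, 27 (55.1%, 41.3 to 68.1) reached a fold of 20, an interval that includes the 47.4% of all 500 peaks. Chromosome 11, which carries KCNQ1OT1, had 23 peaks and 0.823 per Mb (0.522 to 1.23). Its median fold, 8.75 (6.81 to 11.5), was the lowest of the 18 chromosomes with 10 or more peaks, where the next lowest was 8.94 and the highest 32.7. Of the 23, 4 reached a fold of 20, in GRM5 (53.7), MAML2 (35.3), NAV2 (31.7) and SIK3 (30.8). This share was 17.4% (6.98 to 37.1), against 47.4% of all 500 peaks and 30% (14.5 to 51.9) in shorter genes of chromosome 11. Chromosome 18, left out of the ranking with 6 peaks, had 1 of fold 20 or more (16.7%, 3.01 to 56.4). In shorter genes of chromosome 11 the median was 9.39 (6.85 to 22.1), close to the 9.24 of shorter genes on all autosomes. Chromosome 11 was singled out because it holds the gene of the RNA, and its rank was seen before it was described.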

How the data were processed

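One merged list of 4889 peaks from 3 ChIRP-seq libraries was used. Per the submitters' processing notes, Bowtie2, MACS2 and the build GRCh38 were used. Their versions and settings, the control, and how the pulldowns were merged: not given in the sources used here. The authors deposited for each peak a fold enrichment (a linear ratio), a −log10 p and a score, which ranks peaks by p. These are the peak's own values.

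Midpoints were placed on RefSeq GRCh38.p14 genes, 19122 of them autosomal and protein-coding. Exons and introns were not told apart, and strand came from the listed start windows. Admitted sequence is that of the longest covering gene more than 5 kb from every protein-coding gene end. Pileup and background were solved from fold = (pileup + 1) / (background + 1) and the Poisson tail of the pileup, an inference chosen after seeing the data. Which libraries the fragments come from is not given, although all 4889 peak names carry the label Even, depth is otherwise unknown and sequenced fragments can be PCR copies, so intervals cover counting error only. Shares have Wilson, medians exact order-statistic and densities exact Poisson 95% intervals. The interval of a single fold comes from the exact Poisson limits of its pileup, with the background taken as fixed.

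Named genes are those with 3 or more peaks, the 12 highest and 4 lowest folds, the 6 highest scores, the 3 longest genes with and without a peak, up to 4 leading genes per list, the nearest pair, the 4 widest peaks and the 3 peaks on each side of each limit. Further genes were named with their values in view. The peaks, lists and the limit of 20 were chosen with earlier results of these data known. On simulated data 3000 of 3000 peaks were classed correctly and 300 of 300 pileups recovered. Peak sequences were not analysed here, and 1 list and some named genes are not reported here. Python 3.11.15, pandas 2.3.3 and scipy 1.17.1 were used.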

Additional observations from a re-analysis of the deposited data

How the results depend on the processing

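Under 9 alternatives, 55 of 65 recomputed values stayed within their interval, or within 1.5 times for counts. All of them describe the peaks in long genes. The comparisons with shorter genes were not recomputed under any alternative. With only peaks of −log10 p of 20 or more, the median fold was 25, the share with a fold of 20 or more 59.2%, the share with a neighbour within 100 kb 11.8% and the density 0.736 per Mb. With only the peaks above the median score these were 28.3, 68.5%, 11% and 0.637 per Mb. Both alternatives remove weak peaks by construction. A length limit of 150 kb gave 19.6% with a neighbour, and one of 300 kb left 264 genes with a peak. Margins of 2 and 10 kb, whole peaks in place of midpoints and lncRNA genes left out changed no recomputed value beyond those limits. In that order these settings gave 508, 485, 498 and 466 peaks, so they held largely the same peaks. The shortest host gene was tried only for the counts, with 497 peaks in 395 genes. Leaving out lncRNA genes gave no density, and the sequence alternatives were not run. No paired analysis was possible because each group had 1 library and the list holds no value per library. With 1 merged list, no difference has a replicate check.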

Other observations

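The widest peaks after that of AGBL1 were in SLC24A2, a sodium, potassium and calcium exchanger (2764 bp, fold 9.14), in STXBP5L, a regulator of vesicle fusion (2531 bp, fold 22.4), and in ULK4 (2360 bp, fold 8.73). Their pileups of 268, 198 and 228 fragments stood on backgrounds of 28.4, 7.87 and 25.2, so STXBP5L was the one with both a wide peak and a fold above 20. It also held peaks of 3.53 and 3.78. Among the remaining genes with 3 peaks, FARP1 had folds of 4.90, 29.1 and 14.1, SLC35F3 55.7, 34.9 and 14.5, DPP6 31.9, 16.3 and 5.31, TENM3, a teneurin, 25.5, 8.75 and 6.5, MAGI2, a synaptic scaffold, 24.7, 5.95 and 12.6, CCSER1 16.8, 14.5 and 7.74, and NRXN3, a presynaptic neurexin, 10.7, 31.6 and 25.1.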
